A study of Homo sapiens with 8 samples.

Results

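*HBBP1* and *BGLT3* lie between the adult-type genes *HBB* and *HBD* and the γ-globin genes *HBG1* and *HBG2* in the β-globin locus, and the DNA contacts of the interval that holds both were described here in WT and BCL11A KO cells. A contact is a pair of 42-bp stretches (ends) of chromosome 11 that the authors list as interacting. The pairs were chosen by the position of their ends, with 1 end midpoint in chr11:5261214-5268300 (hg19) and the other elsewhere in chr11:5222301-5323175. Every listed pair had itself been selected on its Bayes factor (BF) score, a measure of how strongly the reads back a contact, which had to reach at least 20. After mirrored and repeated lines were collapsed, 174 of 2966 distinct pairs in WT cells and 73 of 2310 in BCL11A KO cells met this rule. The interval was proposed with results of these lists known, so its counts describe these lists, and every test below compares the 2 lists and not the genotypes at large.

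*HBBP1* is a transcribed pseudogene of the β-globin family, and *BGLT3* is a gene for a long non-coding RNA just downstream of the γ-globin genes. In erythroid cells the locus control region (LCR), a cluster of enhancers marked by the hypersensitive sites HS1 to HS5, contacts the globin gene that is active, which is γ-globin in the fetus and β-globin in the adult. BCL11A represses the γ-globin genes in adult cells, and *HBG1*/*2* are expressed again when it is lost. The DNA between the γ-globin genes and *HBD*, where both non-coding genes lie, is lost in several naturally occurring deletions that raise fetal hemoglobin.

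The HUDEP-2 line consists of immortalized human erythroid progenitors with an adult-type globin pattern. WT HUDEP-2 cells and HUDEP-2 cells with a knockout of BCL11A were compared by CAPTURE-3C-seq, and cells of both genotypes carried a biotin-tagged, catalytically inactive Cas9 and guide RNAs that bring it to the baits. The cells were grown in expansion medium with SCF, EPO, dexamethasone and doxycycline per the labels, whereas the paper's methods describe a differentiation step before collection. Libraries of 3 biological replicates per genotype were merged by the authors into 1 list each, so no value below has a replicate error, and intervals and tests cover counting error only. The lists hold no expression values, so neither the genotype nor the cell type could be checked in them. The 4 baits were *HBB* (chr11:5246501-5250201), the region upstream of *HBD* (chr11:5255713-5261213), *HBG1*/*2* (chr11:5270187-5281587) and the LCR (chr11:5295475-5313775). The interval was not a bait. The other end of each of the 247 pairs lay in 1 of the 4 baits and 0 lay elsewhere, so contacts of the interval with *HBE1*, the body of *HBD* or itself could not be seen, and 0 pairs had both ends in the interval.

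On GRCh37, the same build as hg19, GENCODE places all these genes on the minus strand. *HBBP1* (chr11:5263350-5264767) has 3 exons, at 5264680-5264767, 5264336-5264558 and 5263350-5263477. *BGLT3* (chr11:5265784-5266776) has 1 exon. A long *HBD* transcript starts in the interval, and its first exon, 5264680-5264887, overlaps exon 1 of *HBBP1*. An unnamed long non-coding gene overlaps most of *HBBP1*. The interval was divided into 5 sub-regions, which are the 2.136 kb from the *HBD* bait to *HBBP1*, *HBBP1* (1.418 kb), the 1.016 kb between the genes, *BGLT3* (0.993 kb) and the 1.524 kb beyond it.

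The leading ends by number of pairs over both libraries together are printed below on the plus strand of GRCh37, with GATC in capitals, since 415 of the 5800 distinct ends of both lists start or stop exactly there. The enzyme that cut the DNA is not given in the sources used here. The end at 5265993 is in the exon of *BGLT3*, that at 5265240 lies between the genes, and that at 5264415 is in exon 2 of *HBBP1*.
chr11:5265993-5266034: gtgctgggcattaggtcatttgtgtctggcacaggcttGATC
chr11:5265240-5265281: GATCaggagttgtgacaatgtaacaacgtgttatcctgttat
chr11:5264415-5264456: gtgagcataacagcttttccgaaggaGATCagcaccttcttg

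The end in *BGLT3* was in 11 pairs in WT cells and 1 in BCL11A KO cells. It was picked on these counts, to which WT cells gave most pairs, so they are descriptive. In WT it met all 4 baits, with 1 pair to *HBB*, 6 to the *HBD* upstream bait, 1 to *HBG* and 3 to the LCR. It was the only end in the interval to do so in either library, and its 1 pair in BCL11A KO cells went to the LCR. The end at 5265240 was in 5 pairs in WT cells, 4 to the *HBD* upstream bait and 1 to the LCR, and in 1 pair in BCL11A KO cells, to the LCR. The end in exon 2 of *HBBP1*, the most used end of that gene, was in 1 pair in WT cells and 2 in BCL11A KO cells, all to the LCR.

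A 300-bp stretch of *BGLT3* is shown whole, since by the midpoint of their ends it carries 61 of the 75 pairs of *BGLT3* in WT cells (81.3%) and 6 of 16 in BCL11A KO cells (37.5%). It was chosen as the stretch of that length with the most ends lying wholly inside it, 56 in WT cells and 6 in BCL11A KO cells. These same ends, mostly of WT cells, set its place, so the choice itself favoured a high share in WT cells. Both shares are descriptive and were not tested.
chr11:5265792-5266091: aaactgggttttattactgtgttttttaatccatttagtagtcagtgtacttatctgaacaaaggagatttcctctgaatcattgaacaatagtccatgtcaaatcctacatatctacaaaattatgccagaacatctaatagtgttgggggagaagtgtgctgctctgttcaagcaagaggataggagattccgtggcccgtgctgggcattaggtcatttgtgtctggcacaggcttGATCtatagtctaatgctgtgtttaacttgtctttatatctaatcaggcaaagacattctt

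In WT, 7 of these 61 pairs went to *HBB*, 35 to the *HBD* upstream bait, 8 to *HBG* and 11 to the LCR. In BCL11A KO, 0 went to *HBB*, 1 to the *HBD* upstream bait, 0 to *HBG* and 5 to the LCR.

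**Figure D1:**
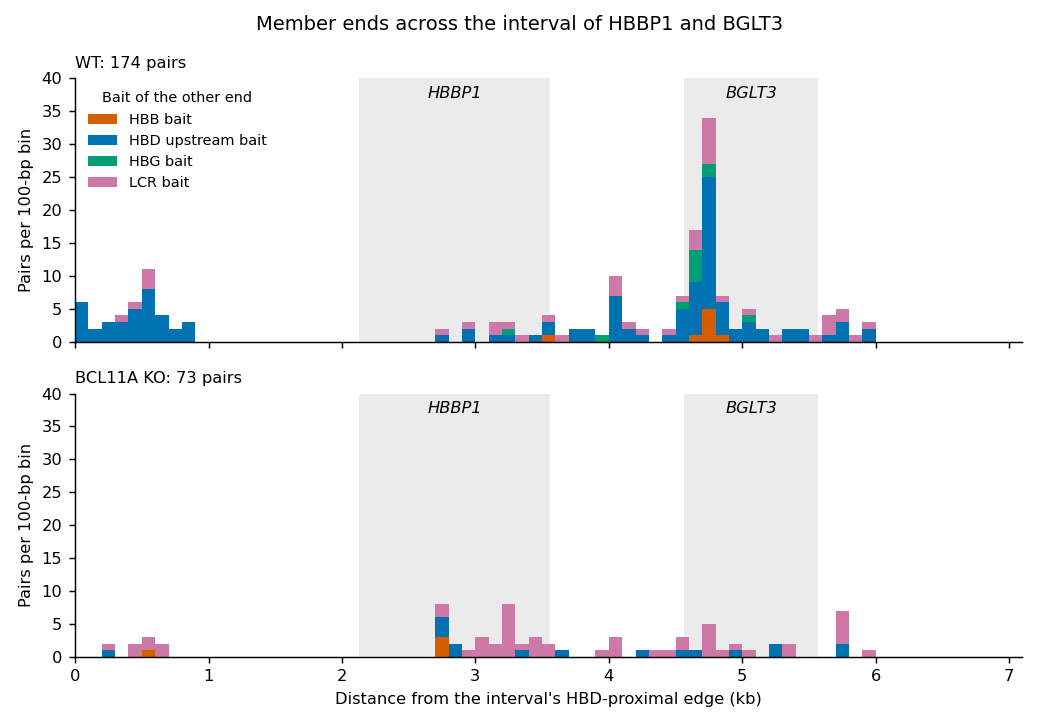
Number of member pairs (y axis, per 100-bp bin) by the distance of the end in the interval from the interval's edge beside the *HBD* upstream bait (x axis, kb), coloured by the bait of the other end, in WT cells (top, 174 pairs) and BCL11A KO (bottom, 73 pairs), with both genes shaded. WT ends pile up at the downstream side of *BGLT3*, and the largest group of BCL11A KO ends, 31 of 73, lies in *HBBP1*.

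The leading partner was the *HBD* upstream bait in WT cells and the LCR in BCL11A KO cells. In WT, 114 of the 174 pairs (65.5%, 95% Clopper-Pearson interval 57.9 to 72.5%) joined the interval to the *HBD* upstream bait, 41 (23.6%, 17.5 to 30.6%) to the LCR, 11 (6.32%) to *HBG* and 8 (4.60%) to *HBB*. In BCL11A KO, 53 of the 73 pairs (72.6%, 60.9 to 82.4%) joined it to the LCR, 16 (21.9%, 13.1 to 33.1%) to the *HBD* upstream bait, 4 (5.48%) to *HBB* and 0 to *HBG*. The lead of the LCR in BCL11A KO cells was not particular to the interval. Elsewhere in the locus, 174 pairs left the *HBD* upstream bait and 450 the LCR in BCL11A KO cells. In WT cells these were nearly level there, at 554 and 542. The median distance between the ends of the interval's pairs was 6959.5 bp in WT cells and 40629 bp in BCL11A KO cells. The libraries shared 0 of these pairs and 10 of their ends in the interval, which were 152 distinct ends in WT cells and 71 in BCL11A KO cells. Few pairs of this kind recur elsewhere either, since of the other pairs that leave a bait within the locus 8 were in both lists, 0.780% of 1025 in WT cells and 1.30% of 617 in BCL11A KO cells. Of all pairs, those within a bait included, 380 were in both, 12.8% of the WT list and 16.5% of the BCL11A KO list.

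By sub-region, *BGLT3* held the most pairs in WT cells and *HBBP1* the most in BCL11A KO cells. *BGLT3* had 75 pairs in WT cells, or 75.5 per kb (Poisson 95% interval 59.4 to 94.7), and 16 in BCL11A KO cells, or 16.1 per kb (9.21 to 26.2). *HBBP1* had 17 pairs in WT cells, or 12.0 per kb (6.98 to 19.2), and 31 in BCL11A KO cells, or 21.9 per kb (14.9 to 31.0). The intervals of the counts per kb do not overlap between the libraries for *BGLT3* and overlap for *HBBP1*. They also do not overlap for the sub-region beside the *HBD* bait and the DNA between the genes, and overlap beyond *BGLT3*. A lack of overlap thus does not set *BGLT3* apart. These counts were not scaled to the sizes of the lists, 2966 pairs in WT cells and 2310 in BCL11A KO cells. Counted as distinct pairs of GATC fragments, *HBBP1* had 12 in both libraries, so its higher count in BCL11A KO cells was absent on that scale, and *BGLT3* had 43 and 11, so the 2 genes were nearly level in BCL11A KO cells. The sub-region beside the *HBD* bait had 41 and 9 pairs, the DNA between the genes 27 and 9, and the DNA beyond *BGLT3* 14 and 8, in WT and BCL11A KO cells.

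Ends lay near GATC sites. The 213 distinct ends had a median distance of 79 bp from the nearest GATC, and the farthest lay 572 bp away. Of the bases of *BGLT3* 100% and of *HBBP1* 98.3% lay within that distance, against 53.6% of the sub-region beside the *HBD* bait. No end of either library had its midpoint between 5262102 and 5263925, a stretch of 1823 bp inside a single 2156-bp GATC fragment that includes exon 3 of *HBBP1*. Counted per kb within reach of a GATC, *HBBP1* had 12.2 pairs in WT cells and 22.2 in BCL11A KO cells, and the values of *BGLT3* were unaltered.

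**Figure D2:**
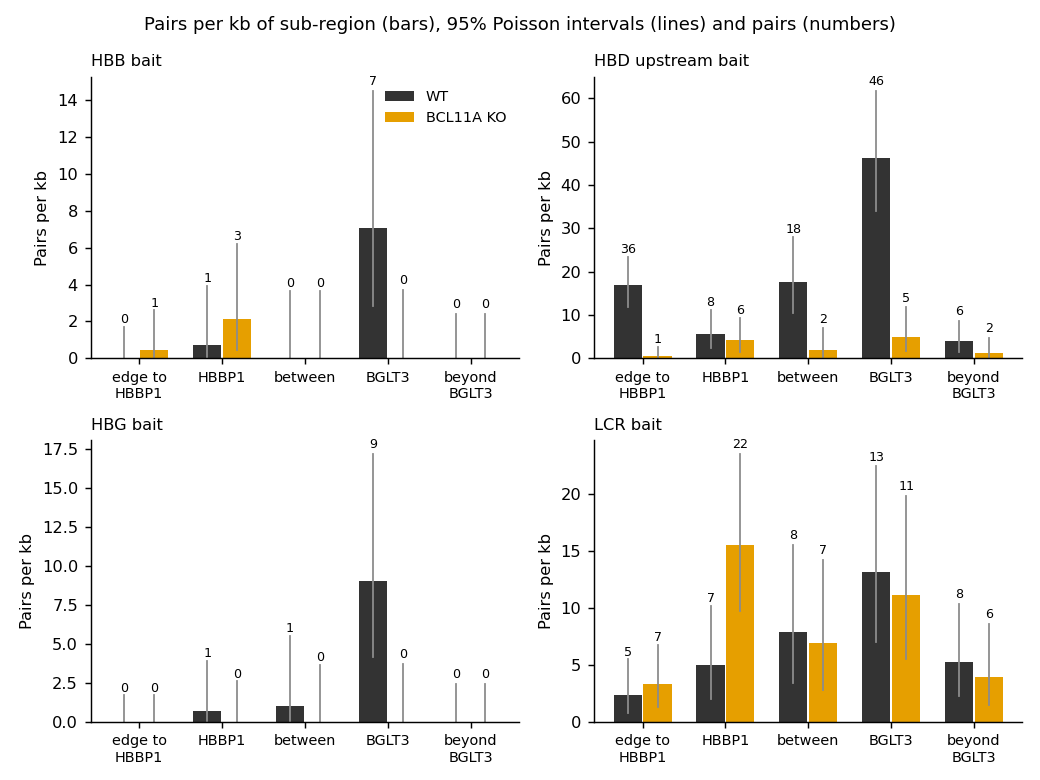
Pairs per kb of each sub-region (y axis) for each of the 4 baits, in WT cells (black bars) and BCL11A KO (orange bars), with 95% Poisson intervals as lines and the number of pairs above each line. The *HBD* upstream, *HBG* and *HBB* pairs of *BGLT3* (46, 9 and 7 in WT cells) were 5, 0 and 0 in BCL11A KO cells, and the LCR pairs of *HBBP1* were 7 and 22.

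Whether a bait devoted more or fewer of its contacts to the interval was asked as the share of all pairs of that bait that ended there, with a two-sided Fisher's exact test and Benjamini-Hochberg adjustment over the interval and tiles of its length along the locus. Of 36 tests of a bait against a window, 12 (33.3%) were called lower in BCL11A KO cells and 4 (11.1%) higher at an adjusted p under 0.05, so a call in this family is not rare. By bait, the calls were 5 lower of 12 for *HBD* upstream, 2 lower and 1 higher of 6 for *HBG*, 3 lower and 3 higher of 9 for the LCR, and 2 lower of 9 for *HBB*. Listed pairs share ends, so they need not be independent of each other.

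The *HBD* upstream bait had 114 of its 1786 pairs in the interval in WT cells (6.38%, 95% interval 5.29 to 7.62%) and 16 of 1013 in BCL11A KO cells (1.58%, 0.905 to 2.55%). The share was 0.247 times that of WT (0.137 to 0.419), and it fell (Fisher's exact test, adjusted p = 3.81e-09). The fall was not particular to the interval. The next window towards *HBG*, chr11:5268301-5275387, had 67 and 7 pairs of this bait, a ratio of 0.184 (0.0713 to 0.401, adjusted p = 1.09e-06 by Fisher's exact test). The windows chr11:5282475-5289561 and chr11:5289562-5296648 had 51 and 55 pairs in WT cells and 0 in BCL11A KO cells, at least 9.64-fold and 10.4-fold lower. The window chr11:5296649-5303735 had 46 and 10 pairs, a ratio of 0.383 (adjusted p = 0.00737 by Fisher's exact test). Windows on this side were not all called. Between them, chr11:5275388-5282474 had 45 and 19 pairs (ratio 0.744, adjusted p = 0.425 by Fisher's exact test), and farther out chr11:5303736-5310822 had 54 and 33 (ratio 1.08, adjusted p = 0.858) and chr11:5310823-5317909 had 20 and 4 (ratio 0.353, adjusted p = 0.114). The 4 windows on the *HBB* side of the bait had ratios from 0.889 to 1.32 and were not called either. Of this bait's pairs, 46.8% in WT cells and 73.5% in BCL11A KO cells had both ends inside the bait. Over the pairs that leave the bait, the shares were 12.0% of 951 and 5.97% of 268 (Fisher's exact test, adjusted p = 0.0116), where 30.6% of the tests were called lower and 19.4% higher. Counted as distinct pairs of GATC fragments the shares were 7.55% and 3.83%, and this call was lost (Fisher's exact test, adjusted p = 0.142). Without the first 1 kb beside the bait the shares were 4.37% and 1.48% (Fisher's exact test, adjusted p = 9.21e-05).

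The *HBG* bait had 11 of 186 pairs in the interval in WT cells (5.91%, 2.99 to 10.3%) and 0 of 193 in BCL11A KO cells, which allows a share of up to 1.55% with a floor of 3 pairs and up to 1.89% by the two-sided Clopper-Pearson interval. Against that floor its share was at least 3.80-fold lower in BCL11A KO cells (Fisher's exact test, adjusted p = 0.00123). Within the list that belongs to this bait alone it was 11 of 86 pairs (12.8%) beside 0 of 82 (adjusted p = 0.00248 by Fisher's exact test). Over distinct fragment pairs it was 8 of 108 (7.41%) beside 0 of 91, which lowers the bound to 2.25-fold (adjusted p = 0.0425 by Fisher's exact test). The LCR bait had 41 of 1195 pairs in the interval in WT cells (3.43%, 2.47 to 4.63%) and 53 of 1224 in BCL11A KO cells (4.33%, 3.26 to 5.63%). The ratio was 1.26 (0.824 to 1.95) and passed no threshold (adjusted p = 0.425 by Fisher's exact test). The *HBB* bait had 8 of 198 pairs there in WT cells (4.04%) and 4 of 125 in BCL11A KO cells (3.20%), a ratio of 0.792 (0.175 to 2.96, adjusted p = 0.869 by Fisher's exact test).

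**Figure D3:**
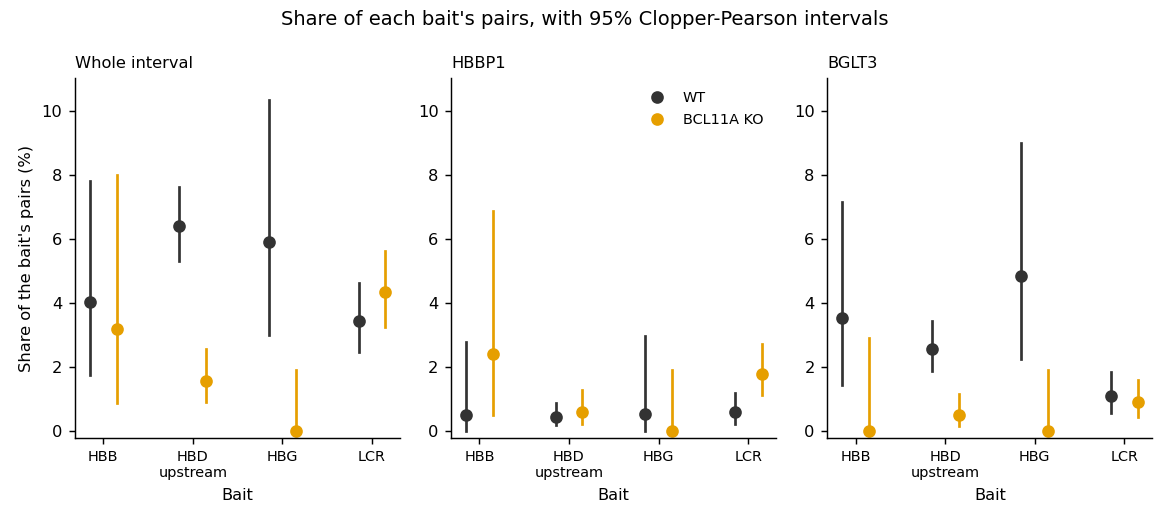
Share of each bait's pairs (y axis, %) that ended in the whole interval, in *HBBP1* and in *BGLT3*, in WT cells (black) and BCL11A KO (orange), with 95% Clopper-Pearson intervals as lines. The intervals of the *HBD* upstream bait do not overlap for the whole interval (6.38% and 1.58%) or for *BGLT3* (2.58% and 0.494%).

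The same shares were then tested for each sub-region, together with 1-kb tiles of the rest of the locus. Of 137 tests, 9 (6.57%) were called lower in BCL11A KO cells and 4 (2.92%) higher. By bait, 4 of 54 were lower for *HBD* upstream, 3 of 11 for *HBG* and 2 of 58 for the LCR, with 1 higher for *HBG* and 3 for the LCR. Among pairs leaving the bait, 4.38% were called lower and 5.84% higher.

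*BGLT3* took part in 2 of the 3 calls inside the interval. There were 20 combinations of sub-region and bait, and those with too few pairs were not tested. *BGLT3* was the only sub-region with enough *HBB* or *HBG* pairs for a test. From the *HBD* upstream bait it received 46 of 1786 pairs in WT cells (2.58%, 1.89 to 3.42%) and 5 of 1013 in BCL11A KO cells (0.494%, 0.160 to 1.15%), a ratio of 0.192 (0.0594 to 0.480, adjusted p = 0.000554 by Fisher's exact test). Over the pairs that leave that bait the shares were 4.84% and 1.87% and the call was lost (Fisher's exact test, adjusted p = 0.209). It was also lost over distinct fragment pairs, of which there were 21 and 3 (Fisher's exact test, adjusted p = 0.627). *BGLT3* received from the *HBG* bait 9 of 186 pairs in WT cells (4.84%, 2.24 to 8.99%) and 0 of 193 in BCL11A KO cells, at least 3.11-fold lower (adjusted p = 0.0170 by Fisher's exact test). This call was lost when only pairs with the highest score were counted, 6 and 0 (Fisher's exact test, adjusted p = 0.0795), and over distinct fragment pairs, also 6 and 0 (adjusted p = 0.423), where the bound was 1.69-fold. Within the bait's own list it was 9 of 86 (10.5%) beside 0 of 82 (Fisher's exact test, adjusted p = 0.0400). It received from the *HBB* bait 7 of 198 pairs in WT cells (3.54%) and 0 of 125 in BCL11A KO cells, which allows up to 2.40% with the same floor (2.91% by Clopper-Pearson), and this was not called (adjusted p = 0.197 by Fisher's exact test). From the LCR it received 13 of 1195 (1.09%) and 11 of 1224 (0.899%), a ratio of 0.826 (0.335 to 2.00, adjusted p = 0.858 by Fisher's exact test).

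*HBBP1* had no call. The LCR reached it with 7 of 1195 pairs in WT cells (0.586%, 0.236 to 1.20%) and 22 of 1224 in BCL11A KO cells (1.80%, 1.13 to 2.71%), a ratio of 3.07 (1.27 to 8.50, adjusted p = 0.0676 by Fisher's exact test). This comparison was called over the pairs that leave the LCR bait, 0.763% and 2.48% (Fisher's exact test, adjusted p = 0.0427), and over those that leave it and end in the locus, 1.20% and 4.37% (adjusted p = 0.0217). It was not called over distinct fragment pairs, of which there were 4 and 9, or 0.557% and 1.32% (Fisher's exact test, adjusted p = 0.752). The *HBD* upstream bait reached *HBBP1* with 8 pairs in WT cells (0.448%) and 6 in BCL11A KO cells (0.592%), a ratio of 1.32 (0.378 to 4.35, adjusted p = 0.826 by Fisher's exact test). Its direction turned over distinct fragment pairs, with only the highest score and with the genes extended by 500 bp, also without a call. *HBB* had 1 and 3 pairs with *HBBP1* and *HBG* had 1 and 0, too few to test. Whether *HBBP1* and *BGLT3* differed in their shift between the genotypes was not tested.

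Of the rest of the interval, the third call was the sub-region beside the *HBD* bait, with 36 pairs from that bait in WT cells (2.02%) and 1 in BCL11A KO cells (0.0987%), a ratio of 0.0490 (0.00121 to 0.291, adjusted p = 7.39e-05 by Fisher's exact test). It was not called when ends had to lie at least 1 kb apart, with 28 and 1 pairs (Fisher's exact test, adjusted p = 0.0928), or over distinct fragment pairs, 9 and 1 (adjusted p = 0.793). The WT pairs dropped by that distance had both ends inside the same GATC fragment, chr11:5260614-5261789. The DNA between the genes had 18 and 2 pairs with the same bait (adjusted p = 0.0977 by Fisher's exact test), and 17.3% of its 42-base stretches occur more than once on chromosome 11. With the LCR it had 8 and 7 pairs, the sub-region beside the bait 5 and 7, and the DNA beyond *BGLT3* 8 and 6, and these were not called.

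Within *BGLT3* most pairs lay on its downstream (3′) side. Its stretch chr11:5265784-5266280 held 66 pairs in WT cells and 12 in BCL11A KO cells, and the remaining upstream side 9 and 4. A single GATC fragment, chr11:5265636-5266030, which begins just outside the gene, held 61 pairs in WT cells and 10 in BCL11A KO cells. Within *HBBP1* the ends lay in intron 2, with 5 pairs in WT cells and 14 in BCL11A KO cells, in exon 2 with 6 and 11, in intron 1 with 1 and 3, and in exon 1 with 5 and 3. Of the 11 pairs of exon 2 in BCL11A KO cells, 10 went to the LCR. Exon 3 had 0 in both libraries.

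Set against the rest of the locus, *BGLT3* stood highest for the *HBD* upstream bait in WT cells. Its 46.3 pairs per kb exceeded each of 87 tiles, of which the highest had 29 and the median 5 per kb. In BCL11A KO its 5.04 pairs per kb were exceeded by 8 of the 87 tiles. *HBBP1*, with 5.64 pairs per kb in WT cells, was exceeded by 39 tiles, and with 4.23 in BCL11A KO cells by 11. For the LCR bait the places were otherwise. *HBBP1*, at 4.94 pairs per kb in WT cells, was exceeded by 31 of 73 tiles, and at 15.5 in BCL11A KO cells by 6. *BGLT3*, at 13.1 and 11.1 pairs per kb, was exceeded by 12 and 7. Tiles lie at different distances from a bait, and contacts thin out with distance. A window of the interval's length at mirrored distances on the other side of the *HBD* upstream bait, which overlaps the *HBB* bait, had 118 pairs in WT cells and 53 in BCL11A KO cells, beside 114 and 16 in the interval. The mirror of *BGLT3* had 9 and 2, and that of *HBBP1* 37 and 26.

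**Figure D4:**
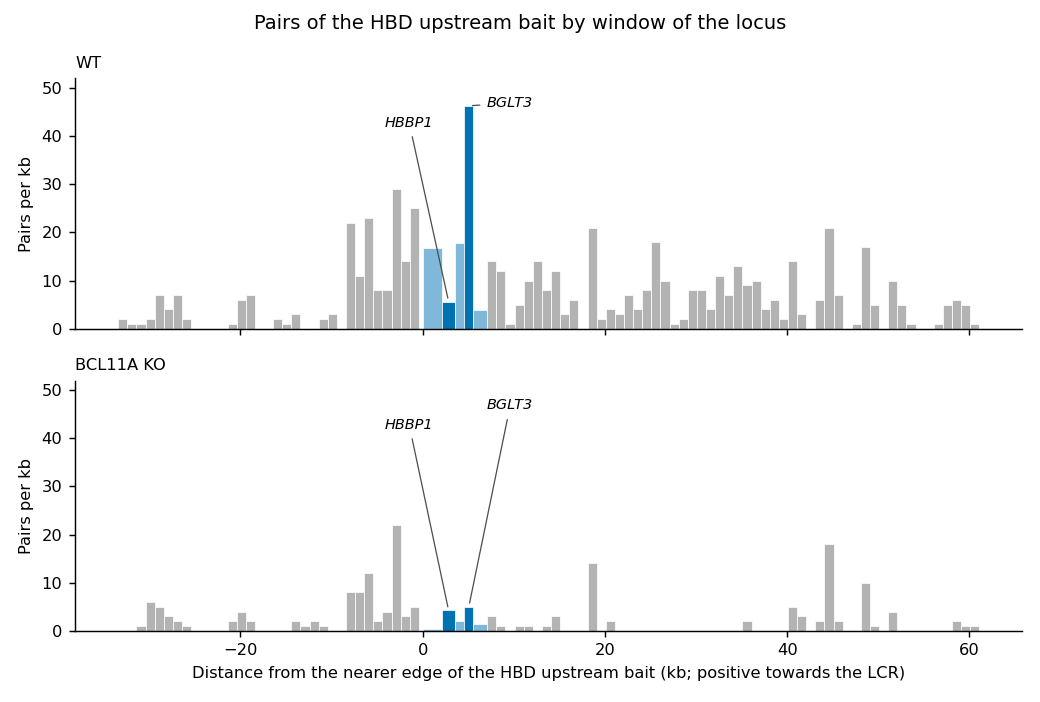
Pairs of the *HBD* upstream bait per kb of window (y axis) by distance from the nearer edge of the bait (x axis, kb, positive towards the LCR) in WT cells (top) and BCL11A KO (bottom), with 1-kb tiles in grey, *HBBP1* and *BGLT3* in dark blue and the other sub-regions in light blue. *BGLT3* is the tallest bar in WT cells at 46.3 pairs per kb and stands at 5.04 in BCL11A KO cells.

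The other ends inside the *HBD* upstream bait, which holds guide sites at several distances upstream of *HBD*, were farther from that gene in the WT list. In WT, 73 of the 114 pairs (64.0%, 54.5 to 72.8%) ended 3 kb or more upstream of *HBD*, with a median of 3816.5 bp, and 45 (39.5%) lay in the 1-kb window around -3.5 kb and 22 (19.3%) in that around -2.5 kb. In BCL11A KO, 1 of 16 (6.25%, 0.158 to 30.2%) did so, with a median of 1987.5 bp, and the same windows held 1 (6.25%) and 7 (43.8%, 19.8 to 70.1%). The window around -2.5 kb was thus used in both libraries. Pairs of this bait with the rest of the locus had the same order, with 71.1% of 554 in WT cells and 36.8% of 174 in BCL11A KO cells ending 3 kb or more upstream. In WT cells 1 of the 8 pairs of *HBBP1* did so, with a median of 1925 bp, and 26 of the 46 of *BGLT3*, with a median of 3786 bp. None of these differences in position was tested. In BCL11A KO, 5 of the 16 pairs used 1 end, chr11:5257743-5257784, which took part in 35.8% of all pairs of that bait there and 17.5% in WT cells. Without the pairs of that end the shares of the interval were 7.67% and 1.69%.

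At the LCR, HS3 and HS4 took most of the pairs. In WT, 15 of 41 pairs (36.6%, 22.1 to 53.1%) ended at HS3, 9 (22.0%) at HS4, 8 (19.5%) at HS2, 5 (12.2%) at HS1 and 2 (4.88%) at HS5, each a 2-kb window. In BCL11A KO, 23 of 53 (43.4%, 29.8 to 57.7%) ended at HS3 and 23 at HS4, with 4 at HS1, 3 at HS2 and 0 at HS5, which allows up to 5.66% with a floor of 3 pairs (6.72% by Clopper-Pearson). The LCR pairs with the rest of the locus ended at HS3 for 37.5% in WT cells and 48.2% in BCL11A KO cells, and at HS4 for 22.7% and 30.2%. Of the 22 LCR pairs of *HBBP1* in BCL11A KO cells, 10 ended at HS4 and 9 at HS3. Of its 7 in WT cells, 2 ended at each of HS1, HS3 and HS4 and 1 at HS2. *BGLT3* had 6 pairs with HS3 in both libraries, 1 and 4 with HS4, 3 and 1 with HS1, and 2 and 0 with HS2. Differences between single sites were not tested.

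**Figure D5:**
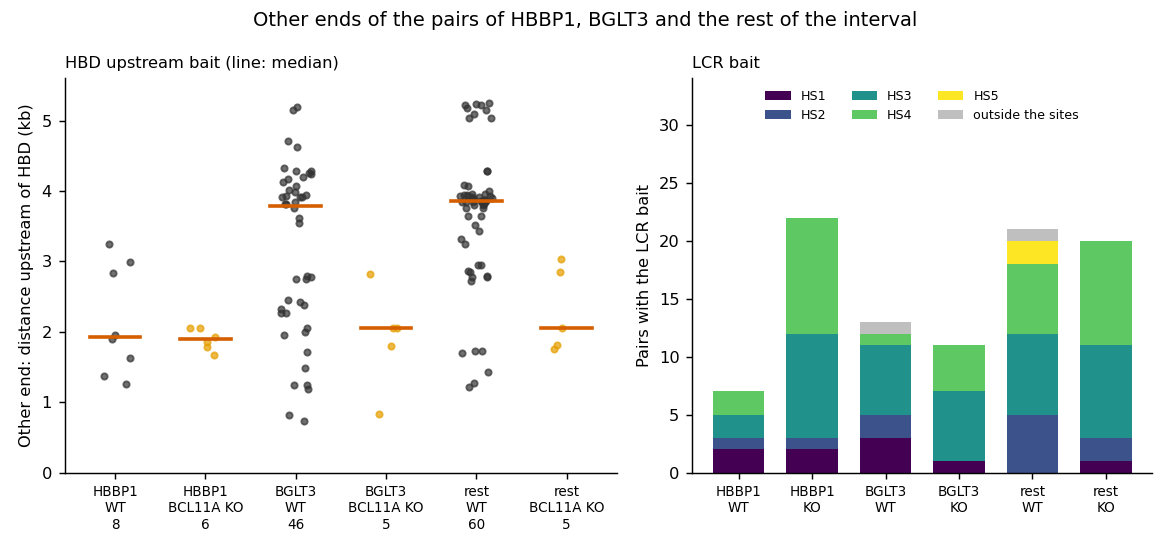
Left, distance of the other end upstream of *HBD* (y axis, kb) for pairs of the *HBD* upstream bait with *HBBP1*, *BGLT3* and the rest of the interval, 1 point per pair, with the median as an orange line and the number of pairs under each column. Right, number of LCR pairs (y axis) of the same regions by hypersensitive site. In BCL11A KO the distances have a median of 1987.5 bp, and HS3 and HS4 make up 19 of the 22 LCR pairs of *HBBP1*.

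In WT cells all 7 *HBB* pairs and 8 of the 9 *HBG* pairs of *BGLT3* had their end in the 300-bp stretch printed above, which was picked for its many ends. The 7 *HBB* pairs of *BGLT3* used ends from 5265804 to 5266074, and their other ends lay between -924 and 653 bp of the *HBB* start site. The 3 *HBB* pairs of *HBBP1* in BCL11A KO cells lay at its intron 2, from 5263946 to 5264012, and their other ends were 88 to 212 bp inside *HBB*. Of the 11 *HBG* pairs in WT cells, 8 had their other end nearer to the start of *HBG2* and a score of 150, and 3 had it nearer to *HBG1* and shared a score of 44. *HBG1* and *HBG2* are near copies, and 43.5% and 43.3% of the 42-base stretches in their promoter windows occur more than once on chromosome 11, so reads kept for a single match can be missing there.

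The BF scores were at the upper limit of 150 for 169 of 174 pairs in WT cells (97.1%) and 60 of 73 in BCL11A KO cells (82.2%), against 89.7% and 88.3% of all pairs. The 5 lower ones in WT cells were the 3 *HBG1* pairs at 44 and 2 LCR pairs between the genes at 25. The 13 in BCL11A KO cells ranged from 21 to 123, and 5 of them belonged to *HBBP1*. A score can be shared by several pairs with the same partner, as those at 44 and 25 were. As distinct pairs of GATC fragments the members numbered 90 in WT cells and 40 in BCL11A KO cells, and 20 were in both, which is 22.2% of those in WT cells and 50% of those in BCL11A KO cells. Over the other pairs that leave a bait within the locus, 196 fragment pairs were in both, 32.7% of 600 and 48.6% of 403, so the members' overlap is near that background for BCL11A KO cells and below it for WT cells, which was not tested. For *BGLT3*, 7 were in both, of 43 and 11, and for *HBBP1* 5, of 12 and 12.

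Just inside the rule's edge beside the *HBD* upstream bait, the first 500 bp held 20 and 4 pairs in WT and BCL11A KO cells, and the 500 bp just outside held 28 and 9. At the edge towards *HBG* the last 500 bp held 0 and 0, and the next 500 bp outside 10 and 11. A letter search on both strands found AGATAA, a sequence that GATA factors can bind, 3 times in *BGLT3* and 1 time in *HBBP1*, with 60.4% and 71.8% of same-length tiles of the locus holding it. TGACCA, a sequence bound by BCL11A, was found 0 times in *BGLT3*, 1 time in *HBBP1* (starting at 5264010) and 2 times between the genes (5264904 and 5264942), where 40.6%, 53.5% and 40.4% of tiles hold it. These are matches of letters and not measured binding.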

How the data were processed

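The authors deposited, for each interaction, where both its ends lie (chromosome positions) and a BF score, a score from their MAXIM code that reaches 150 and had to be at least 20. Reads that matched a single place in hg19 were kept, and the submitters' processing notes name Bowtie2 2.2.8 and Picard. Replicates of each genotype were merged, and their samples were not analysed here. Read numbers per pair, and so depth, are unknown; a pair counts once.

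Each list was read as 4 sorted lists without names, and every pair was kept in 1 orientation. Ends were placed by their midpoint. Starts count from 1, since 415 of 5800 distinct ends begin or stop at a GATC and at most 44 do when shifted by up to 4 bp. A GATC fragment is the DNA between neighbouring GATC sites. Baits and LCR sites were read by eye from the study's map as distances from start sites, and genes come from GENCODE release 44 on GRCh37. The share of a bait's pairs was taken over all its distinct pairs, without the division by bait size in the methods' formula, which would scale both genotypes alike. A test needed at least 5 pairs in both lists together. Shares have Clopper-Pearson and counts Poisson 95% intervals, and a count of 0 was set to a floor of 3 pairs for bounds.

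The named items are both genes, the other sub-regions, the baits and their sites, the 3 ends used most and the end used most in each gene. Of these ends, 1 that ties for the third place is not reported here. Members, lists and tests were chosen with earlier results of these data known. Python 3.11.15, numpy 2.4.6, scipy 1.17.1 and matplotlib 3.10.9 were used. The window tests were tried on pairs drawn independently from the WT list. Such draws cannot show how shared ends or spread between replicates affect the calls. In all, 13 alternatives were run, 2 of them added after seeing the data.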

Additional observations from a re-analysis of the deposited data

How the results depend on the processing

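Of 199 values recomputed under 13 alternatives, 171 kept their direction and side of the threshold (or stayed within 1.5 times for a number of pairs), and 9 changed sign, none of them called in either setting. Differences are percentage points of a bait's pairs, BCL11A KO minus WT. *HBBP1* and *HBD* upstream, 0.14 points, turned with only the highest score (-0.077), over fragment pairs (-0.16, and -0.13 for those leaving the bait) and with genes extended by 500 bp (-0.32). The DNA beyond *BGLT3* and *HBD* upstream turned over pairs leaving the bait (0.12), those leaving it within the locus (0.15) and ends at least 1 kb apart (0.12). Over pairs leaving the bait within the locus, the interval and *HBB* turned (0.023), as did the DNA between the genes and the LCR (0.019). The interval's lower share of *HBD* upstream pairs, -4.80 points, lost its call over distinct GATC fragment pairs, at -3.72 for all pairs and -3.78 for those leaving the bait. For *BGLT3* and that bait, -2.08 points, the call was lost over pairs leaving the bait (-2.97), those leaving it within the locus (-4.25), ends at least 1 kb apart (-2.61) and fragment pairs (-2.25, and -2.33 for those leaving). For *BGLT3* and *HBG*, -4.84 points, it was lost with only the highest score (-3.53) and over fragment pairs (-5.56, and -5.88 for those leaving). For *HBBP1* and the LCR, 1.21 points, a call was gained over pairs leaving the bait (1.71), those leaving it within the locus (3.17), with at least 10 pairs per test (1.21) and with 2-kb tiles (1.21). The sub-region beside the *HBD* bait lost its call with ends at least 1 kb apart and over fragment pairs. Member pairs were 90 in WT and 40 in BCL11A KO as fragment pairs. The cause was not tested, although fragment pairs leave fewer counts. The fragment pairs that leave a bait, and leaving out the most used end of each bait, were chosen after seeing the data. No paired analysis was possible because each genotype has 1 merged list. The merged lists give no spread between replicates, and their depth is unknown.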
